A study of Mus musculus with 2 samples.

Results

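Most of the genes described here encode the respiratory chain and the ATP synthase, the machinery of oxidative phosphorylation, in macrophages of the sciatic nerve. They were taken by symbol. The mitochondrial set holds the genes named *mt-Nd*, *mt-Co*, *mt-Cytb* or *mt-Atp*, and the nuclear set holds the families *Nduf*, *Cox4* to *Cox8*, *Uqcr* and *Atp5* with *Sdha* to *Sdhd*, without symbols that carry "-ps". This gave 13 mitochondrial and 98 nuclear genes, 111 of the 54838 genes in the count tables. The symbol *Atp5o* stands for 2 gene identifiers, and both were kept. The nuclear set also holds 8 assembly factors of complex I (*Ndufaf*) and the processed pseudogenes *Ndufs6b*, *Ndufb4c*, *Ndufa11b* and *Cox6c2*, whose symbols lack "-ps". Of the nuclear members, 2 (*Cox7b2* and *Cox8c*) had no UMI in any cell and 4, these included, stayed under 3 counts in both libraries, while 81 reached a mean of 20 CPM (UMI counts of a gene scaled to a common library total) over both libraries and were compared as single genes. Of the mitochondrial members, 12 did, all but *mt-Nd6*.

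Cells were single-cell RNA-seq profiles of CD64+ CD45int macrophages, sorted by YFP from the pooled sciatic nerves of 19 male Flt3-Cre LSL-YFP fl/fl mice that were 10 to 12 weeks old. Both groups carried the same alleles. The Cre is driven by *Flt3*, a receptor of hematopoietic progenitors, so YFP+ macrophages descend from cells that once expressed it and YFP− macrophages do not carry that mark. Each group was 1 library of pooled mice, so no test between them was possible, and every interval given in parentheses is an exact 95% interval for counting error only.

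Oxidative phosphorylation joins the products of 2 genomes. Complexes I, III, IV and V each contain subunits read from mitochondrial DNA next to many more read from the nucleus and imported, whereas complex II is nuclear throughout. Mitochondrial genes are copied as long transcripts that are cut into shorter messages inside the organelle, and stretches of mitochondrial DNA have also been pasted into nuclear chromosomes, where they persist as pseudogenes.

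At least 500 UMIs and 200 genes were found in 1045 YFP− barcodes (2418044 UMIs, median 2233 per cell) and 4053 YFP+ barcodes (6747554 UMIs, median 1484 per cell), with 7 cell barcodes present in both libraries. A count of 3 corresponded to 1.24 CPM for the YFP− and 0.445 CPM for the YFP+ library. By the methods, the YFP− library received nearly as many sequencing reads as the YFP+ library on fewer UMIs, so that reads for each UMI and the groups cannot be told apart. The 9 macrophage markers checked summed to 20061 and 20038 CPM, while markers of T cells and erythroid cells were at or near 0. Schwann cell markers were present in both libraries (699 and 640 CPM), and those of mural cells (9.93 and 117 CPM), fibroblasts (23.6 and 94.6 CPM) and monocytes (329 and 793 CPM, with 3 of 6 markers at a mean of at least 20 CPM) were higher in YFP+ cells. Without the Schwann-like and mural-like clusters described further on, the log2 ratio of YFP+ over YFP− cells was −0.090 for the mitochondrial set. For the nuclear set it was 0.048. With all cells these ratios were −0.077 and 0.054. The part of such RNA in the remaining cells, and of monocyte markers, was not tested. Since a UMI marks 1 captured message near its 3′ end, levels were not scaled by gene length.

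Several mitochondrial genes cannot be told apart, at their 3′ ends, from copies on chromosome 1. In the GENCODE M21 annotation of GRCm38, unprocessed pseudogenes line up on the minus strand of chromosome 1 in the order of the mitochondrial genome. *Gm10925* (chr1:24613974-24614651) matched *mt-Atp6* (chrM:7927-8607) with 0 mismatches over 678 bases, *Gm28661* (chr1:24614885-24615565) matched *mt-Co2* (chrM:7013-7696) with 0 over 681, *Gm28437* (chr1:24613189-24613971) matched *mt-Co3* (chrM:8607-9390) with 0 over 783 and *Gm10222* (chr1:24612407-24612700) matched *mt-Nd4l* (chrM:9877-10173) with 0 over 294. *Gm28438* (chr1:24612775-24613119) differed from *mt-Nd3* (chrM:9459-9806) at 1 of 345 bases, and *Gm29216* (chr1:24615706-24616197) differed from *mt-Co1* (chrM:5328-6872) at 6 of 492. The following 90-base stretches of coding sequence are shown because a sequencing read from all or most of each could come from either place. They are the last 90 bases shared by each of the first 4 genes with its copy, and for *mt-Nd3* and *mt-Co1* the stretch with the differences. Capitals mark bases that differ between a gene and its copy.
mt-Atp6 (chrM:8515-8604) and Gm10925 (chr1:24613974-24614063): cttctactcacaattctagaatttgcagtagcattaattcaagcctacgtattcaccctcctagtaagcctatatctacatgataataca
mt-Co2 (chrM:7604-7693) and Gm28661 (chr1:24614885-24614974): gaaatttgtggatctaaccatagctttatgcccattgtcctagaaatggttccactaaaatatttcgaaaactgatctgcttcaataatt
mt-Co3 (chrM:9300-9389) and Gm28437 (chr1:24613189-24613278): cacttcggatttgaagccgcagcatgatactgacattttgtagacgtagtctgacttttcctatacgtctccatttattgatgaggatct
mt-Nd4l (chrM:10081-10170) and Gm10222 (chr1:24612407-24612496): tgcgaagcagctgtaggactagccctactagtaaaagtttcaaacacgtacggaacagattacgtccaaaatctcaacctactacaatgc
mt-Nd3 (chrM:9459-9548): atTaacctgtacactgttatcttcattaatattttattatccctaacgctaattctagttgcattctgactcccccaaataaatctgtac
Gm28438 (chr1:24613030-24613119): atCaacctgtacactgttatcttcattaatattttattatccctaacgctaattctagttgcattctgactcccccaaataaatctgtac
mt-Co1 (chrM:6381-6470): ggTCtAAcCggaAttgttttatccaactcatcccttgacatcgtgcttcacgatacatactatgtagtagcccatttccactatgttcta
Gm29216 (chr1:24616108-24616197): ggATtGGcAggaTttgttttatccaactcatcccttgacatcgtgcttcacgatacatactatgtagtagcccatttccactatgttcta

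The mitochondrial set made up 0.875% (0.863–0.887) of the UMIs of YFP− cells and 0.830% (0.823–0.837) of those of YFP+ cells (log2 ratio −0.08, −0.10 to −0.05, where ratios throughout are YFP+ divided by YFP−). Of its 12 genes compared, 5 were lower in YFP+ cells by more than 1.5-fold and 0 were higher. Among all 5531 genes with a mean of at least 20 CPM, 5.77% were lower and 1.54% were higher by that much (7.3% in either direction). The 5 genes together went from 0.193% (0.187–0.198) of UMIs in YFP− cells to 0.0863% (0.0841–0.0886) in YFP+ cells, a log2 ratio of −1.16 (−1.21 to −1.10). The other 8 genes went from 0.682% (0.672–0.693) to 0.743% (0.737–0.750), a log2 ratio of 0.12 (0.10–0.15). Over all cells summed, the near balance of the whole set was thus the sum of parts that differed in opposite directions. These parts had been split by this ratio itself. The direction of the 8 genes was not the same in all cells. Of 12 clusters described further on, their interval lay above 0 in 7 and below 0 in 2. The 2 include cluster 5, a group of shallow cells, at −0.25 (−0.32 to −0.17). Among the alternatives, leaving out cluster 5 moved the ratio of the whole set to −0.00, and weighting each cell equally moved it to −0.25.

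By assigned UMIs, *mt-Nd1*, a membrane subunit of complex I, was the most abundant member, with 2773 CPM (2707–2840) in the YFP− library and 2936 CPM (2895–2977) in the YFP+ library. *mt-Cytb*, the mitochondrial subunit of complex III, followed at 1847 CPM and 2155 CPM, a log2 ratio of 0.22 (0.17–0.27). Together these genes held 52.8% of the mitochondrial set's UMIs in YFP− cells and 61.4% in YFP+ cells. How many messages of the genes whose 3′ ends match a copy were not assigned to them is unknown. The order of the genes, the shares of the set, its ratios between the libraries and its UMIs for each nuclear UMI hold for assigned UMIs only. *mt-Nd4*, also of complex I, was at 862 and 1069 CPM (log2 ratio 0.31, 0.24–0.38). *mt-Nd2* was at 631 and 616 CPM and *mt-Nd5* at 256 and 229 CPM, with log2 ratios of −0.03 (−0.12 to 0.05) and −0.16 (−0.29 to −0.02). *mt-Nd3* was at 60.8 and 67.0 CPM, and *mt-Nd6*, the only protein gene on the other strand, was at 9.10 and 11.9 CPM, and the intervals of both ratios held 0.

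Both mitochondrial genes of the ATP synthase were lower in YFP+ cells. *mt-Atp6*, which forms part of the proton channel, went from 892 CPM (855–931) in YFP− cells down to 431 CPM (416–447) in YFP+ cells, a log2 ratio of −1.05 (−1.13 to −0.97). *mt-Atp8*, a small subunit of the same enzyme, was at 627 and 266 CPM (−1.23, −1.33 to −1.13). In complex IV, whose 3 mitochondrial genes form the catalytic core, *mt-Co2* was at 83.5 and 31.7 CPM (−1.37, −1.65 to −1.09) and *mt-Co3* at 125 and 65.8 CPM (−0.91, −1.13 to −0.70). *mt-Co1* was at 383 and 349.9 CPM, a log2 ratio of −0.13 (−0.24 to −0.02). In complex I, *mt-Nd4l* was at 200.2 and 67.9 CPM, with the lowest ratio of the set at −1.55 (−1.73 to −1.36).

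For each gene, 90-base windows over the last 500 bases of its transcripts were searched for in the transcripts of every other gene. Of the 5 lower genes, 4 shared nearly all windows with another gene, namely *mt-Co3* (99.8%), *mt-Co2* (99.3%), *mt-Atp6* (99.3%) and *mt-Nd4l* (98.6%). *mt-Atp8* shared 0. It overlaps *mt-Atp6* by 43 of its 204 bases, and the copies of *mt-Co2* and *mt-Atp6* on chromosome 1 lie 233 bases apart, against 230 bases between the genes themselves. The sequence between these copies was not compared with *mt-Atp8*, so what it holds was not tested. *mt-Nd3* (97.7%) and *mt-Co1* (94.9%) also shared most windows but were not lower by 1.5-fold. Their copies were the only ones among the 6 with mismatches, all of them away from the 3′ end. These lay within bases 1 to 90 of 348 in *mt-Nd3* and 1054 to 1143 of 1545 in *mt-Co1*, and their part was not tested. *mt-Nd2* shared 9.73%, and *mt-Nd1*, *mt-Nd4*, *mt-Nd5*, *mt-Nd6* and *mt-Cytb* shared 0. Some windows occurred in genes other than the copies named, those of *mt-Nd2* in *Gm13339*, of *mt-Co1* also in *Gm13340* and of *mt-Co2* also in *Gm13341*. These are not in the sum of copies given below. Outside these windows, *Gm28439* (chr1:24611535-24612410) matched 876 of the 1378 bases of *mt-Nd4* (chrM:10167-11544) with 0 mismatches, without its 3′ end.

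**Figure D1:**
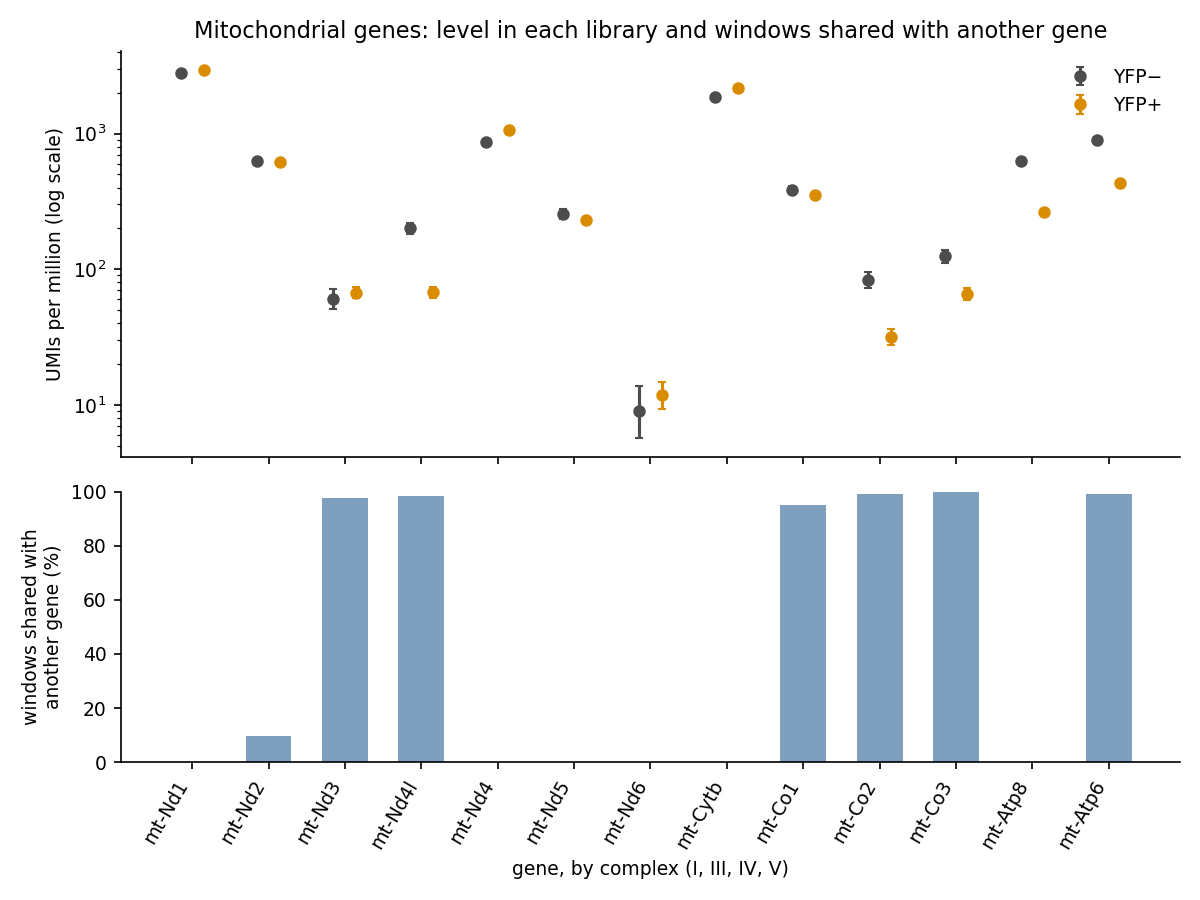
Upper panel, level of each mitochondrial gene in CPM on a log axis in YFP− and YFP+ cells, with exact Poisson 95% intervals (counting error only, 1 library each). Lower panel, percent of 90-base windows near the gene's 3′ end that occur in another gene; mt-Nd4l, mt-Co2, mt-Co3, mt-Atp8 and mt-Atp6 are lower in YFP+ cells, and all but mt-Atp8 of these have shared windows above 98%.

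UMIs assigned to the copies on chromosome 1 moved the same way. The 6 copies named and *Gm28439*, 7 in all, summed to 201 CPM (183.9–220.1) in YFP− cells and, in YFP+ cells, to 78.3 CPM (71.7–85.2), a log2 ratio of −1.35 (−1.53 to −1.17). *Gm10925* was at 70.3 and 25.3 CPM, *Gm28437* at 59.6 and 19.4 CPM and *Gm29216* at 38.05 and 19.7 CPM. The ribosomal RNA *mt-Rnr2*, a product of the same genome with 0 shared windows, was at 1969 and 2365 CPM (log2 ratio 0.26, 0.22–0.31), and *mt-Rnr1* at 191 and 178 CPM (−0.10, −0.26 to 0.06). The 5 lower genes made up 21.2 to 23.5% of the mitochondrial set's UMIs in each of 4 depth classes of YFP− cells and 9.30 to 11.4% in those of YFP+ cells. In barcodes of 10 to 100 UMIs, which hold RNA from outside cells, they made up 14.0% and 8.38%. Within each of 12 clusters of cells, the log2 ratio of the 5 lower genes was below 0 with an interval below 0 (12 of 12 clusters, −1.73 to −0.64). The other 8 genes were above 0 in 9 clusters and below in 3. The smallest of these clusters held 5 YFP− and 35 YFP+ cells. The 5 and the 8 genes had been split by this ratio in the same cells, so the depth classes and clusters add no separate support.

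The same relation held over the whole table. Among 4306 genes without a shared window, 1.60% were lower and 1.70% were higher in YFP+ cells by 1.5-fold. Among 549 genes with up to 10% of windows shared, 6.74% were lower, among 475 with 10 to 50% shared, 21.9% were lower, and among 198 above 50%, 55.1% were lower and 1.01% were higher. The part of the shared sequence in these differences was not tested.

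**Figure D2:**
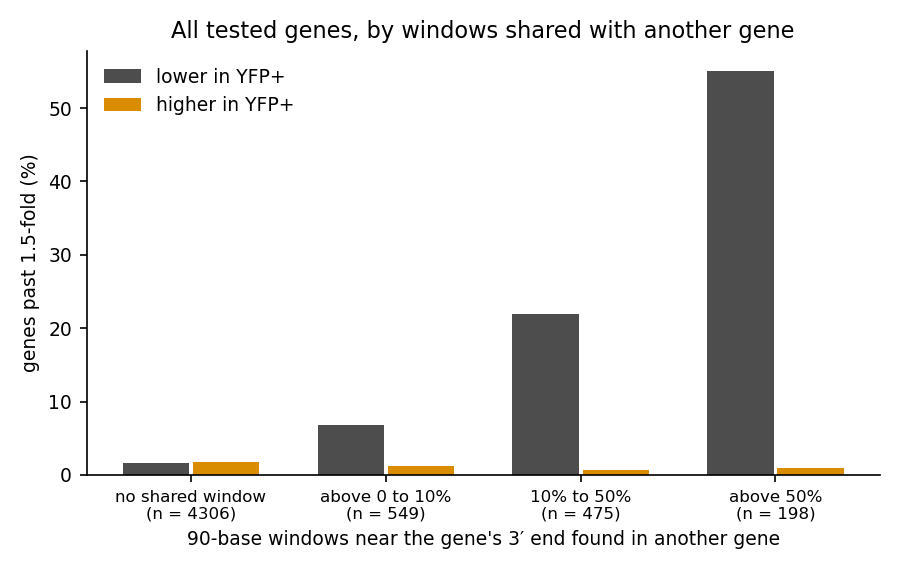
Percent of all tested genes that were lower (grey) or higher (orange) in YFP+ than in YFP− cells by more than 1.5-fold, in 4 classes of the percent of 90-base windows shared with another gene. The lower share rises from 1.60% to 55.1%, and the higher share stays between 0.632% and 1.70%.

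The nuclear set made up 1.53% (1.51–1.54) of the UMIs of YFP− cells and 1.59% (1.58–1.60) of those of YFP+ cells, a log2 ratio of 0.05 (0.04–0.07). The median ratio of its 81 compared members was 0.06, against −0.00 for all genes, and 74 of them lay within 0.3 of 0. Past 1.5-fold, 0 were higher and 4 were lower (5.77% of all genes were lower by that much). All 4 had shared windows, and *Cox6c2* and *Ndufb4c* among them are processed pseudogenes. Of the 57 compared members without a shared window, 0 passed 1.5-fold, where 1.60% of all 4306 such genes were lower and 1.70% higher. These counts lie near the shares of all genes, so nothing particular to the members is read from them. Taken by complex, the nuclear log2 ratios were 0.05 (0.02–0.08) for complex I, 0.06 (−0.10 to 0.23) for its assembly factors, 0.03 (−0.09 to 0.16) for complex II, 0.14 (0.09–0.20) for complex III, 0.08 (0.05–0.11) for complex IV and −0.02 (−0.05 to 0.02) for complex V. The mitochondrial parts of the same complexes were, by assigned UMIs, at 0.06 (I), 0.22 (III), −0.40 (IV) and −1.12 (V). The parts of IV and V are *mt-Co1*, *mt-Co2*, *mt-Co3*, *mt-Atp6* and *mt-Atp8*. All of these but *mt-Atp8* shared 94.9 to 99.8% of windows with another gene, so their messages may not all be assigned. Counted as UMIs of the mitochondrial set for each UMI of the nuclear set, YFP− cells had 0.573 (0.563–0.582) and YFP+ cells 0.523 (0.518–0.528), and without the 5 lower genes they had 0.446 and 0.469.

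Within complex I, *Ndufa2* and *Ndufa13*, accessory subunits, were the most abundant nuclear members, at 376 and 405 CPM and at 372 and 379.5 CPM. *Ndufa12* (94.7 and 117 CPM, log2 ratio 0.30, 0.09–0.51), *Ndufv3* (118 and 139.8 CPM, 0.24, 0.05–0.44) and *Ndufa11* (74.4 and 88.6 CPM, 0.25, 0.01–0.49), all accessory subunits, had ratios whose intervals lay above 0. *Ndufa9* (34.7 and 43.0 CPM, 0.30, −0.05 to 0.66) and *Ndufb6* (42.2 and 50.8 CPM, 0.26, −0.05 to 0.59) had ratios as large on fewer counts, with intervals that held 0. *Ndufb11* was at 193 and 177 CPM, a ratio of −0.13 (−0.28 to 0.03). *Ndufb4*, a membrane subunit, was lower in YFP+ cells, at 95.1 and 61.4 CPM (−0.62, −0.86 to −0.39), and so was *Ndufb4c*, at 45.1 and 26.5 CPM (−0.74, −1.09 to −0.40). *Ndufb4c* (chr15:73809507-73809896) is a processed pseudogene that matched *Ndufb4* (chr16:37647170-37654453) with 0 mismatches over 390 bases, so UMIs from the shared part cannot be told apart. *Ndufb1-ps*, which the rule left out for its symbol, was at 256 and 274 CPM. Among the assembly factors, *Ndufaf8* was at 72.8 and 74.2 CPM and *Ndufaf4* at 23.99 and 20.01 CPM.

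Complex II, which also works in the citric acid cycle, was level. *Sdhb*, its iron-sulfur subunit, was at 98.01 and 105 CPM and *Sdha*, its flavoprotein, at 75.3 and 73.1 CPM. Complex III was the complex with the highest nuclear ratio. *Uqcrh*, the hinge subunit, was at 371 CPM (347–396) and 448 CPM (432–464), a log2 ratio of 0.27 (0.16–0.38). The Rieske protein *Uqcrfs1* (98.01 and 119.9 CPM, 0.29, 0.08–0.50), the core subunit *Uqcrc1* (81.5 and 100.9 CPM, 0.31, 0.08–0.54) and *Uqcrb* (262 and 300.3 CPM, 0.20, 0.07–0.33) lay on the same side, and *Uqcrc2*, the other core subunit, was at 45.9 and 53.1 CPM (0.20, −0.10 to 0.52). The interval of *Uqcrc2* held 0, those of the other 4 lay above 0, and the size of these differences against the spread between mice is unknown. The remaining nuclear members of the complex had ratios between −0.06 and 0.06, with intervals that held 0. *Cyc1*, the cytochrome of the same complex and not a member by symbol, was at 67.0 and 56.2 CPM (−0.25, −0.52 to 0.02).

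In complex IV, *Cox4i1*, which carries its regulatory subunit 4, was the most abundant nuclear member of all, with 795 CPM (760–831) in YFP− cells against 908 CPM (885–931) in YFP+ cells (log2 ratio 0.19, 0.12–0.27). *Cox8a* was at 606 and 599 CPM, *Cox5a* at 132 and 122 CPM (−0.11, −0.30 to 0.08) and *Cox6c* at 383 and 441 CPM (0.20, 0.10–0.31). *Cox6c2* (chr12:56373593-56373823), a processed pseudogene of *Cox6c*, was at 34.7 and 14.8 CPM (−1.18, −1.59 to −0.76). The 2 sequences differed at 7 of 231 bases, and their last 90 bases are shown because 1 base there separates them (capitals), while 39.4% of the windows of *Cox6c2* also occur in *Cox6c*.
Cox6c2 (chr12:56373593-56373682): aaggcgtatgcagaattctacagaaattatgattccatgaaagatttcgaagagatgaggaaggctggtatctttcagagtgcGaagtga
Cox6c: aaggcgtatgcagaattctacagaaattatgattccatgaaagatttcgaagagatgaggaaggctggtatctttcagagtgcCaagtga

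In complex V, the nuclear members *Atp5e* and *Atp5j2*, small subunits of the rotor stalk and of the membrane part, were at 497 and 467 CPM and at 404 and 403 CPM. *Atp5d* (258 and 221 CPM, −0.22, −0.36 to −0.09), the delta subunit of the central stalk, was lower without any shared window. *Atp5l* (281 and 209.7 CPM, −0.42, −0.55 to −0.29) was lower with 40.7% of windows shared, in part with the pseudogene *Gm10221*. *Atp5g2* (chr15:102662864-102672352), 1 of 3 genes for the c subunit that forms the rotor ring, was at 31.4 and 13.2 CPM (−1.19, −1.63 to −0.75), with 56.4% of windows shared with the pseudogenes *Gm10175* and *Gm10231*.

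**Figure D3:**
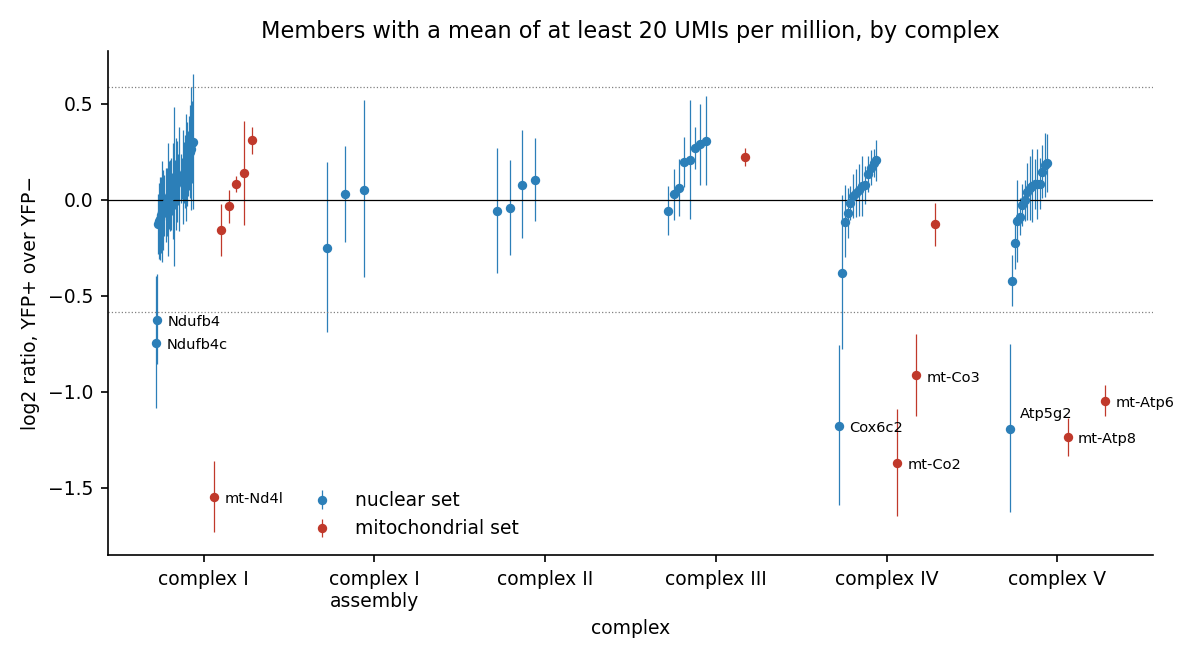
Log2 ratio of YFP+ over YFP− cells for each member with a mean of at least 20 CPM, by complex, with exact 95% intervals for counting error; dotted lines mark 1.5-fold. The 9 labelled genes below the lower line are 5 mitochondrial and 4 nuclear members, and no member is above the upper line.

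Isoforms that mark tissues such as heart, skeletal muscle, lung and testis were rare, except *Cox6b2* at 5.84% and 4.12% of the *Cox6b* UMIs. *Cox4i1* held 1922 UMIs in YFP− and 6124 in YFP+ cells, against 0 and 4 of *Cox4i2* (0 allows a share of up to 0.192%, the exact 95% bound). *Cox8a* held 1465 and 4040 UMIs against 1 and 0 of *Cox8b*, and *Cox7b* held 448 and 1313 against 0 and 0 of *Cox7b2*, which allows shares of up to 0.820% and 0.281%. *Cox6a1* held 99.04% and 98.7% of the *Cox6a* UMIs and *Ndufa4* 99.5% and 99.6% of those of *Ndufa4* and *Ndufa4l2*. *Cox6b1* held 94.2% and 95.9%, with the rest on *Cox6b2* (30.6 and 23.3 CPM). *Cox7a2l*, which helps to join complexes III and IV, held 63.7% (61.4–66.0) and 63.9% (62.5–65.2) of the *Cox7a* UMIs, *Cox7a2* 35.5% and 34.9%, and the muscle form *Cox7a1* 0.768% and 1.25%. For the c subunit, *Atp5g1* held 59.4% (56.0–62.9) in YFP− and 67.5% (65.5–69.4) in YFP+ cells, *Atp5g3* 31.0% and 28.5%, and *Atp5g2* 9.51% and 3.97%. Of 10 UMIs of *Ndufa4l2*, a form of the complex IV subunit gene *Ndufa4* that responds to low oxygen, 8 lay in the 40 cells of a cluster with mural cell markers (*Myh11*, *Acta2*), in 5 cells, and of 4 UMIs of *Cox4i2*, 2 lay in 1 cell of that cluster. This was chosen after the values were seen.

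Other lists of mitochondrial and metabolic genes were counted in the same way, against 5.77% of all genes lower and 1.54% higher, and nothing particular to a list is read from counts near these shares. Past 1.5-fold were 0 of 13 import genes in the upward and 1 in the downward direction (*Tomm6*, 103 and 55.3 CPM, −0.88, with 62.6% of windows shared), with *Tomm7* at 328 and 327 CPM and *Tomm22* at 137 and 112 CPM (−0.28, −0.47 to −0.09). Of 62 genes of the mitochondrial ribosome 0 passed in either direction, with *Mrpl52* at 166 and 165 CPM and *Mrps21* at 147 and 151 CPM. Of 13 compared citric acid cycle genes 1 was higher (*Dld*, a dehydrogenase subunit, 16.5 and 27.1 CPM, log2 ratio 0.68, 0.20–1.18), with *Mdh2* at 79.4 and 80.8 CPM and *Idh2* at 78.99 and 74.2 CPM. Of 18 assembly factors of complexes II to V, 1 was lower (*Cox16*, −0.78, with 43.2% of windows shared), and *Atpif1*, the inhibitor of the ATP synthase, was at 543 and 599.6 CPM (0.14, 0.05–0.23) and *Higd2a* at 179.9 and 159 CPM (−0.17, −0.34 to −0.01). None of 11 glycolytic genes passed, and the list sum was at 0.11 (0.06–0.17), with *Gapdh* at 352 and 368 CPM and *Gpi1* at 192 and 194 CPM. *Ucp2*, an uncoupling protein of the inner membrane, was the most abundant carrier, at 875 and 766 CPM (−0.19, −0.26 to −0.12), before the phosphate carrier *Slc25a3* at 214 and 210.3 CPM. Of 3 compared genes of mitochondrial transcription and DNA copying, 4 of RNA handling, 4 nuclear regulators and 8 of defence against oxidants, 0 passed. These included *Ssbp1* (65.8 and 66.2 CPM) and *Polg* (27.3 and 23.4 CPM), *Slirp* (122 and 131 CPM) and *Hsd17b10* (74.03 and 71.4 CPM), *Yy1* (74.03 and 71.9 CPM) and *Nrip1* (66.2 and 74.99 CPM), and *Gpx1* (681 and 685 CPM) and *Prdx5* (302 and 285 CPM). Of 88 cytosolic ribosomal genes, led by *Rps29* (11939 and 11784 CPM) and *Rps27* (5573 and 6396 CPM), 7 were lower and 0 higher. The lower ones were *Rpl13a*, *Rps27rt*, *Rpl37rt*, *Rpl6l*, *Rps3a2*, *Rpl32l* and *Rps3a3*, with ratios of −1.32 to −0.63 and 4.19 to 89.8% of windows shared. Of 16 genes that respond to dissociation, led by *Fos* and *Jun*, 1 was higher (*Hspa1b*, 75.3 and 151 CPM, log2 ratio 0.998, 0.77–1.23). Of the nuclear retained RNAs, *Malat1* was at 35560 and 42398 CPM (0.25, 0.24–0.26) and *Neat1* at 671 and 523 CPM (−0.36, −0.44 to −0.27).

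Across cells, both sets were compared after each cell had been thinned to 500 UMIs, with the nuclear share taken over UMIs outside mitochondrial genes. A thinned YFP− cell held 5.54 UMIs of the mitochondrial set on average, with a median of 4 and a range of 0 to 52, and 7.39 of the nuclear set, with a median of 7 and a range of 0 to 21. YFP+ cells held 4.65 (median 4, 0 to 34) and 7.69 (median 7, 0 to 37). The variance over the mean was 4.93 and 2.86 for the mitochondrial set and 1.57 and 1.44 for the nuclear set, so the mitochondrial share varied more from cell to cell. The shares of both sets had a Spearman rho of −0.03 (Pearson r −0.12) over 1045 YFP− cells and of 0.01 (r −0.04) over 4053 YFP+ cells. The *mt-Nd* genes and the rest of the mitochondrial set had a rho of 0.39 and 0.32, and nuclear complex I and nuclear complexes II to V had 0.14 and 0.11. The nuclear share had 0.20 and 0.10 with the share of cytosolic ribosomal genes. The value within the nuclear set is thus not particular to it. The mitochondrial share had −0.37 and −0.21 with cytosolic ribosomal genes and 0.26 and 0.15 with *Malat1*. These are descriptions in sparse counts, in which points share a library and a depth.

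Both sets moved with the number of UMIs of a cell, in opposite directions. The rho with the cell's UMIs was −0.48 and −0.28 for the mitochondrial share and 0.22 and 0.13 for the nuclear share, in YFP− and YFP+ cells. In cells of 500 to under 1000 UMIs the mitochondrial set made up 2.19% (2.103–2.27) of the UMIs of 150 YFP− cells and 1.24% (1.22–1.27) of those of 1184 YFP+ cells. In cells of 2000 to under 4000 UMIs it made up 0.717% (0.704–0.731) and 0.712% (0.703–0.722). The higher mitochondrial share of YFP− cells was thus found among the shallow cells, and intervals overlapped from 2000 UMIs on. The nuclear set went from 1.18% (1.11–1.24) in the shallowest class to 1.74% (1.69–1.78) in the deepest in YFP− cells and from 1.45% (1.43–1.48) to 1.82% (1.78–1.86) in YFP+ cells. Barcodes of 10 to 100 UMIs had 1.001% and 1.12% of UMIs on the mitochondrial set and 1.80% and 2.08% on the nuclear set.

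**Figure D4:**
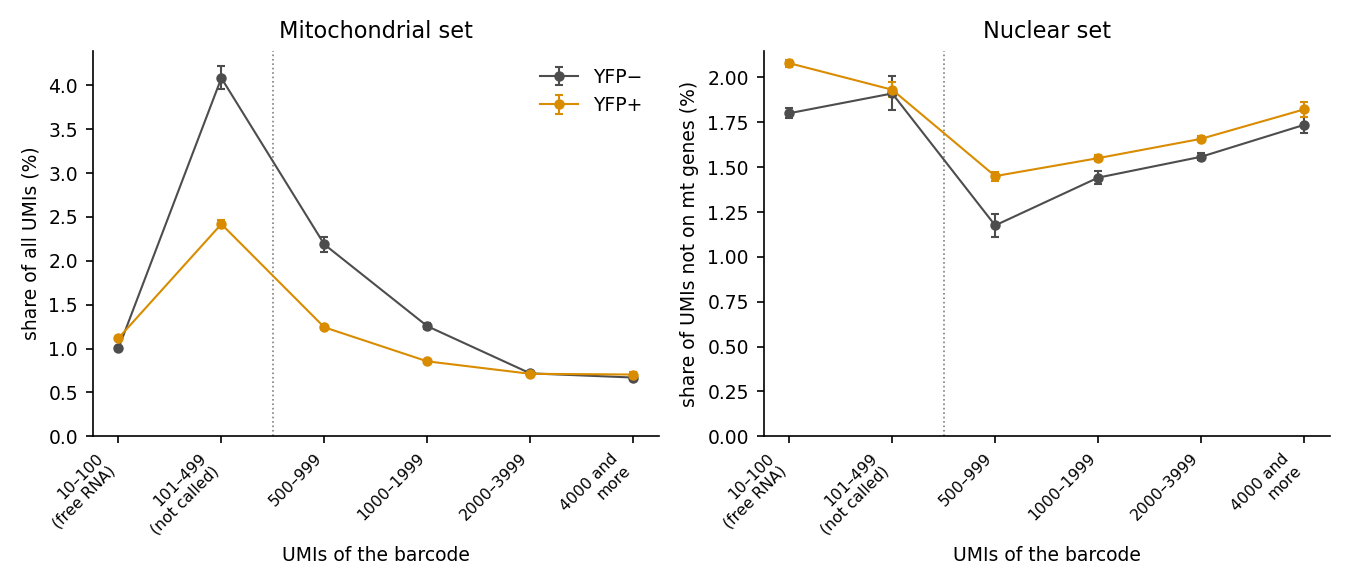
Share of UMIs on the mitochondrial set (left, of all UMIs) and on the nuclear set (right, of UMIs outside mitochondrial genes) by the UMIs of the barcode, with exact binomial 95% intervals; barcodes left of the dotted line were not called as cells. Among cells the mitochondrial share falls and the nuclear share rises with depth. The libraries' mitochondrial shares meet at 2000 to under 4000 UMIs, as sums over genes that differ there in opposite directions.

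The relation between the sets differed in size and sign between depth classes. In cells of 500 to under 1000 UMIs, those with the top mitochondrial shares (at least 7 of 500 thinned UMIs in YFP− and 6 in YFP+ cells) had 1.11% (1.03–1.19) and 1.40% (1.37–1.44) of UMIs on the nuclear set, against 1.45% (1.19–1.75, 9 cells) and 1.52% (1.46–1.57, 248 cells) in cells with at most 2. In cells of 1000 to under 2000 UMIs, the top cells had 1.38% (1.32–1.45) and 1.57% (1.54–1.60), against 1.43% (1.34–1.52) and 1.52% (1.49–1.55), with overlapping intervals. In cells of 2000 to under 4000 UMIs, the top cells had 1.68% (1.61–1.74) and 1.82% (1.79–1.85), against 1.5% (1.47–1.53) and 1.60% (1.57–1.62). The rho over cells of these classes was −0.02 and −0.08 in the shallow, 0.01 and 0.08 in the middle and 0.18 and 0.14 in the deep class, for YFP− and YFP+. Schwann cell markers moved with the mitochondrial share in shallow cells, at 4196 CPM in the top against 524 CPM (143–1341) in the bottom YFP− cells and 2480 against 391.7 CPM in YFP+ cells. In the middle class they were at 1096 against 268 CPM in YFP− and 835 against 584 CPM in YFP+ cells. In the deep class they were at 339 and 325 CPM and at 336 and 329 CPM. Cluster 5, described further on, combined a high mitochondrial share with the lowest nuclear share of all clusters. To the shallow class it contributed 91 cells out of 150 for YFP− and 256 out of 1184 for YFP+. Schwann cell markers summed to 425 CPM in cluster 5, below the 667 CPM of the other cells. With cluster 5 left out, the rho over cells of all depths was positive in both libraries. The part of Schwann RNA and of cluster 5 in the relation was not tested.

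Nuclear members with a mean of at least 50 CPM numbered 70. Of these, 34 in YFP− and 43 in YFP+ cells were higher at a top mitochondrial share (1428 and 1486 of all 2618 genes). Their median log2 ratios were −0.01 and 0.03 (all genes, 0.05 and 0.04). Past 1.5-fold, 2 were higher and 3 lower in YFP− cells, where 9.74% and 5.08% of all genes were, and 0 passed in YFP+ cells, where 1.3% and 0.497% did. By the smaller of both ratios, *Ndufa10* (0.71, −0.07 to 1.47, and 0.39, −0.01 to 0.78), a complex I subunit, stood highest among them. *Sdhd* was below 0 in both (−0.53, −1.37 to 0.26, and −0.47, −0.87 to −0.08). Myelin genes of Schwann cells led the genes that were higher, with *Mbp* at 2.72 and 1.51 and *Pmp22* at 1.15 and 0.93, together with *Sparc* and the macrophage genes *Stab1* (1.25 and 0.75), *Mmp9* (1.08 and 0.79) and *Sdc3* (0.74 and 0.76). *Gm12940*, *C4b* and *Flna* were also among the 10 highest. Lower were the chemokine *Ccl4* (−1.26 and −0.67), the heat shock genes *Hspa1a* (−0.93 and −0.64) and *Hsp90aa1* (−0.65 and −0.60) and the translation factors *Eif3m* (−1.34 and −0.55) and *Eif3i* (−1.08 and −0.57), with *Cct5*, *Spg21*, *Lyz1*, *Gm6472* and *Gm6222*. Both intervals of *Gm6222* held 0. Of 83 cytosolic ribosomal genes, 77 were below 0 in both libraries (medians −0.38 and −0.16), and of 15 genes that respond to dissociation, 14 were (medians −0.45 and −0.32), where 728 of all 2618 genes were. Depth was not matched here. Median UMIs were 1199 in top and 2907 in bottom YFP− cells, and 1070 and 1770 in YFP+ cells. *Mmp9*, *Stab1* and *Sdc3* were also among the leading genes of cluster 5. The part of depth and of cluster 5 in these gene differences was not tested.

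Cells were also grouped into 12 clusters from which all mitochondrial genes and all members had been left out. Clusters without enough listed markers stayed unnamed. In clusters 1 to 3, the large unnamed ones with 1161, 1145 and 668 cells, the mitochondrial set made up 0.778 to 0.862% of UMIs and the nuclear set 1.60 to 1.61%. A monocyte-like cluster (*S100a4*, *Ccr2*, 544 cells) was at 0.762% and 1.68%, and an interferon response-like cluster (*Irf7*, *Ifit3*, 140 cells) at 0.776% and 1.58%. In the monocyte-like cluster, 3 of the 6 listed monocyte markers were detected. Both early response-like clusters, led by *Cxcl2* and *Atf3* (432 cells) and by *Il1b* and *Ccl4* (220 cells), had the lowest mitochondrial shares, at 0.657% (0.640–0.673) and 0.628% (0.606–0.651), and low nuclear shares, at 1.38% (1.35–1.40) and 1.498% (1.46–1.53). In the first of them 9 of the 70 nuclear members were above the other cells (924 of all 2618 genes), with a median log2 ratio of −0.26 (all genes −0.09). In the second 20 were (882 of all 2618 genes), with a median of −0.18, close to that of all genes (−0.17).

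Higher nuclear shares were found in 4 small clusters. In the cycling-like cluster (*Top2a*, *Mki67*, 71 cells) the nuclear set made up 1.959% (1.90–2.02) and the mitochondrial set 0.838% (0.801–0.875). There 60 of 70 nuclear members were above the other cells (1308 of all 2618 genes), with a median log2 ratio of 0.31 (all genes −0.00). Of these 70 members, 11 were higher and 0 lower past 1.5-fold, against 13.3% and 15.7% of all genes. The median UMI total of these cells was 3101. The Cd209-high-like cluster (*Cd209f*, *Fcna*, 122 cells) was at 1.94% (1.88–2.01) nuclear and 1.02% (0.974–1.07) mitochondrial, with 9 of 70 nuclear members higher and 4 lower (15.8% and 19.7% of all genes). The Schwann-like cluster (*Mal*, 66 cells) was at 2.11% and 1.32%, with 23 of 70 nuclear members higher and 2 lower (14.2% and 30.7% of all genes), and the mural-like cluster (40 cells, with fibroblast markers also raised) had the highest shares of both sets, at 2.32% (2.21–2.43) and 1.99% (1.90–2.097). In the mural-like cluster 32 of 70 nuclear members were higher and 1 lower past 1.5-fold, against 15% and 36% of all genes. Median UMIs of the Cd209-high-like, Schwann-like and mural-like clusters were 1133.5, 910.5 and 1678.5, and depth was not matched. In YFP− and YFP+ cells, mitochondrial shares were 1.15% and 0.936% in the Cd209-high-like cluster (47 and 75 cells). In the mural-like cluster they were 2.59% (2.30–2.91, 5 cells) and 1.90% (1.80–2.01, 35 cells). All cells of 1000 to under 2000 UMIs had 1.26% and 0.854%. The Schwann-like cluster had 1.10% (0.938–1.28, 10 cells) and 1.36% (1.28–1.45, 56 cells), and all cells of 500 to under 1000 UMIs 2.19% and 1.24%.

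Cluster 5 stood apart. Its 489 cells (151 YFP− and 338 YFP+), with a median of 785 UMIs, had the second highest mitochondrial share, 1.70% (1.66–1.74), and the lowest nuclear share, 1.14% (1.11–1.17). They held 1.52 UMIs of the mitochondrial set for each UMI of the nuclear set, against 0.423 to 0.882 in the other 11 clusters. All 5 nuclear complexes were lower than in the other cells, with log2 ratios of −0.37 (−0.44 to −0.29) for complex I, −0.33 (−0.64 to −0.03) for II, −0.52 (−0.65 to −0.40) for III, −0.62 (−0.70 to −0.55) for IV and −0.51 (−0.60 to −0.42) for V. Of 70 nuclear members 26 were lower past 1.5-fold and 0 were higher, against 14.9% and 12.2% of all genes. The shift was also present within a depth class. Among YFP− cells of 500 to under 1000 UMIs, 91 cells of cluster 5 had 2.43% (2.31–2.55) mitochondrial and 0.929% (0.857–1.01) nuclear UMIs, and 59 other cells had 1.85% (1.73–1.98) and 1.51% (1.40–1.63). Among YFP+ cells of that class, 256 cells had 1.71% (1.65–1.77) and 1.09% (1.05–1.14), and 928 other cells had 1.13% (1.10–1.15) and 1.54% (1.51–1.57). Macrophage markers summed to 24266 CPM in cluster 5 and 19841 CPM in the other cells, and Schwann cell markers to 425 and 667 CPM. The leading gene of cluster 5 was *Gm10925*, the copy of *mt-Atp6*, which had not been left out of the clustering, followed by *Mmp9*. With the nuclear copies left out as well, a step added after seeing the data, 442 of the 489 cells came together again in a cluster of 472, at 1.69% and 1.12%.

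**Figure D5:**
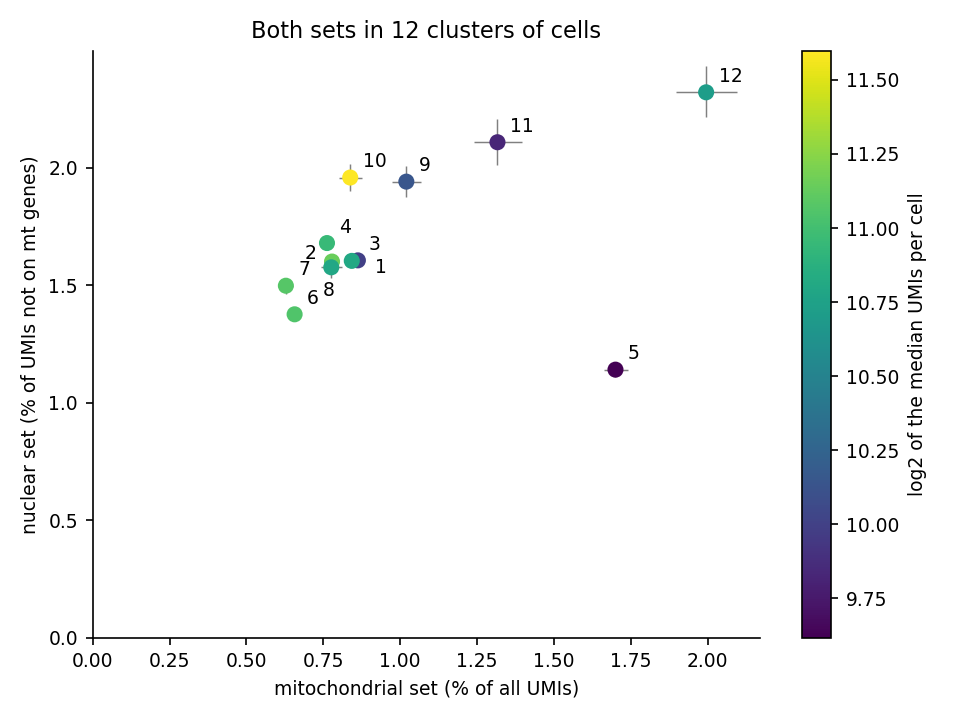
Share of UMIs on the mitochondrial set (x axis, of all UMIs) and on the nuclear set (y axis, of UMIs outside mitochondrial genes) in 12 clusters, numbered by size, with exact binomial 95% intervals and colour for the log2 of the median UMIs per cell. Cluster 5 combines a high mitochondrial share (1.70%) with the lowest nuclear share (1.14%), and clusters 9 (Cd209-high-like), 10 (cycling-like), 11 (Schwann-like) and 12 (mural-like) have the highest nuclear shares.

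Between the libraries, the mitochondrial share of cluster 5 was 2.07% (1.995–2.14) in YFP− and 1.51% (1.47–1.56) in YFP+ cells. Over the 12 clusters, the log2 ratio of YFP+ over YFP− lay between −0.45 and 0.31 for the mitochondrial set, above 0 in 5 clusters, and between −0.12 and 0.16 for the nuclear set, above 0 in 10. Counting intervals lay above 0 in 4 clusters and below 0 in 1 for the nuclear set.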

How the data were processed

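Single-cell RNA was captured with the 10x v2 kit from sorted macrophages, 1 library for YFP− and 1 for YFP+ cells. The authors aligned reads to GRCm38 with Cell Ranger, and the deposited files hold raw UMI counts per gene and barcode, without normalization or a cell filter. The submitters' processing notes name Cell Ranger 3.0.2 and Seurat 2.2.0, and the methods name another Cell Ranger version; the annotation release is not given in the sources used here. Bulk libraries were not used.

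All values were computed in pandas 2.3.3, scipy 1.17.1 and numpy 2.4.6 under Python 3.11.15. Cells were barcodes with at least 500 UMIs and 200 genes, and doublets were kept. Counts were summed over cells and scaled to CPM. Log2 ratios used a pseudocount of 1 CPM with intervals conditional on the gene's summed counts, and single genes were compared at a mean of at least 20 CPM (50 CPM along the mitochondrial share and between clusters). Intervals are exact (Poisson for levels, Clopper-Pearson for shares) and cover counting error only. With 1 library per group a call means past 1.5-fold, and no p-value was computed. Shared windows and sequences came from GENCODE M21 transcripts (GRCm38). *Gm10221*, on the list of mitochondrial copies, matched *Atp5l* and was left out of their sum after its values were seen. Both *Atp5o* identifiers were kept apart.

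Clusters came from scanpy 1.11.5 with leidenalg 0.10.2 (2000 variable genes, 20 components, 20 neighbours, resolution 0.8, seed 0). A name needed 3 detected markers, a mean log2 ratio of at least 0.5 and 1 marker among the 10 leading genes; these thresholds were set after the lists. The members, lists and cluster names were chosen with earlier results of these data known. Named were all mitochondrial genes, the 2 most abundant nuclear members per complex, the 10 highest and 10 lowest ratios, isoform families, and per list the 2 most abundant and any past 1.5-fold, and along the mitochondrial share the 10 genes at each end, of which 1 is not reported here. Scripts were tested on simulated counts. Alternatives changed cell calling, depth weighting, free RNA, doublets, clusters, pseudocount and filter.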

Additional observations from a re-analysis of the deposited data

Results flagged for a closer look

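Barcodes of more than 100 and fewer than 500 UMIs lie between free RNA and cells and enter no comparison of the report; under 1 alternative rule of cell calling, those above 463 (YFP−) and 486 UMIs (YFP+) counted as cells. In them the mitochondrial set made up 4.08% (3.95–4.21) of the UMIs of 387 YFP− barcodes and 2.42% (2.37–2.47) of the UMIs of 1816 YFP+ barcodes. Both values are above those of free RNA (1.001% and 1.12%) and of the shallowest cells (2.19% and 1.24%). The nuclear set made up 1.91% and 1.93% of UMIs there, and *Malat1*, a nuclear RNA, 4.68% and 6.11%. What these barcodes hold was not tested.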

How the results depend on the processing

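No paired analysis was possible because each group is 1 library, and leaving out a replicate was not run for the same reason. Differences between mice, sorts or lanes cannot be told apart from those between the groups. Depth limits single members under about 50 CPM, whose counting intervals on the log2 scale are wide.

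Shares that moved beyond counting error are given for YFP− and YFP+ cells, mitochondrial set first. Nuclear shares are here of UMIs outside mitochondrial genes (1.545% and 1.603% in the report's setting). They were 0.810% and 0.767% with nuclear 1.56% and 1.63% at a cell minimum of 1000 UMIs, 0.901% and 0.842% with 1.52% and 1.58% without the 5% of cells with the most UMIs, 1.11% and 0.938% with 1.47% and 1.55% with cells weighted equally, 1.11% and 0.930% with 1.499% and 1.56% thinned, and 0.861% and 0.797% with 1.52% and 1.55% after subtracting free RNA. Without the Schwann-like and mural-like clusters, YFP+ shares were 0.814% and 1.591%. Without cluster 5, added after seeing the data, mitochondrial shares were 0.8008% and 0.8001%.

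The mitochondrial log2 ratio became −0.25 with equal weights and thinned, −0.11 after subtracting free RNA, −0.0013 without cluster 5 and, with the opposite sign, 0.14 without *mt-Atp8* and the 6 genes that share over 50% of their windows (added after seeing the data). *mt-Atp8* shared 0 windows and was itself among the genes lower in YFP+ cells, and a ratio that keeps it is not given. The nuclear ratio became 0.082 with equal weights and 0.033 after subtracting free RNA. The count of nuclear members past 1.5-fold was 9 with no filter on low genes and 0 without members that share windows, against 4. The Spearman correlation of both shares across cells was 0.045 and 0.12 at 1000 UMIs, 0.057 (YFP+) without the deepest cells, −0.15 and −0.031 without thinning, and 0.078 and 0.099 without cluster 5. The cause of these moves was not tested. Other values stayed within counting error or, for the count, within 1.5 times.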
